A study of Homo sapiens with 4 samples.

Results

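Genes that receive, relay or buffer insulin and insulin-like growth factor (IGF) signals were followed across 4 mRNA sequencing libraries of hepatocellular carcinoma (HCC) cells. The set held 10 genes, chosen by symbol from the 60612 genes listed in both tables: the receptors INSR, IGF1R and IGF2R, the intracellular adaptors IRS1, IRS2 and PID1, and the secreted binding proteins IGFBP1, IGFBP2, IGFBP3 and IGFBP4. All 10 symbols matched a single row, and the genes were chosen with earlier results of these data known. The study sequenced 2 human HCC lines to ask whether the nuclear RNA-binding protein CCDC137, which it had linked to AKT activity, alters mRNA levels. The Huh-7 libraries came from cells with empty vector and from cells stably overexpressing human CCDC137 from a lentiviral vector with a V5 tag sequence. Those of PLC/PRF/5 came from cells with a control vector and from cells whose CCDC137 was stably repressed by guide RNA and inactive Cas9 fused to KRAB. Per the study's methods, infected cells were selected with puromycin. The sources used here do not say whether the cells were clones or pools, or which guide RNA the sequenced cells held. With 1 library per group, no difference has a replicate check, no p-value is given, and the error of each value is unknown.

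Insulin binds the receptor tyrosine kinase INSR, and IGF1 and IGF2 bind the related kinase IGF1R. Both receptors phosphorylate the substrates IRS1 and IRS2, which recruit PI3K and thereby activate AKT. IGF2R carries no kinase and clears IGF2 from the cell surface, while the IGFBPs are secreted, hold IGFs in the extracellular fluid and set how much of them reaches the receptors. The liver is a major source of circulating IGFs and of several IGFBPs, and hepatocytes lower IGFBP1 and IRS2 transcription when insulin excludes the factor FOXO1 from the nucleus. PID1 is an adaptor with a phosphotyrosine-binding domain that binds the receptor LRP1 and reduces insulin-stimulated glucose uptake in cultured adipocytes.

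Values are FPKM, that is fragment numbers divided by the length of the transcript and by the size of the library, so that levels can be set side by side between genes. FPKM summed to between 276444 and 289684 per library, and between 11727 and 11903 genes reached 1 FPKM. CCDC137 followed the labels: overexpression took it from 11.9 to 229 FPKM, and knockdown from 20.5 to 0.771 FPKM. Of 11 hepatocyte or hepatoma markers, 11 reached 1 FPKM in both Huh-7 libraries and 10 in both PLC/PRF/5 libraries. Of the 11, 3 were far lower in PLC/PRF/5: ALB (albumin) was at 2.15 and 1.94 FPKM against 1084 and 1142 in Huh-7, TTR at 0.298 and 0.260 against 89.3 and 93.03, and APOA1 at 4.60 and 4.01 against 238 and 245. AFP, the fetal albumin relative, was at 90.8 and 139 FPKM against 419 and 530. Others were near or above the Huh-7 level, such as SERPINA1 at 589 and 484 FPKM in PLC/PRF/5 against 296 and 281, APOB at 383 and 388 against 373 and 436, and KRT18 at 348 and 345 against 313 and 265. Of the 12 markers of other cell types, the leukocyte gene PTPRC was listed at 0 in all 4 libraries. The 6 fibroblast or stellate markers summed to 29.4 and 23.8 FPKM in Huh-7, nearly all from LUM, and to 0.790 and 1.03 in PLC/PRF/5. The 3 endothelial markers summed to between 0.894 and 2.66 FPKM, and the 3 leukocyte markers to between 165 and 250, nearly all from LYZ and CD68, genes that PLC/PRF/5 and Huh-7 both held. The part of these markers in the results below was not tested.

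Among the 10 genes, PID1 was the 1 with a large difference on CCDC137 overexpression. Its level in Huh-7 was 22.1 FPKM with the empty vector and 3.10 with CCDC137, and in PLC/PRF/5 it was 0.0334 FPKM with the control vector and 0.164 after knockdown. Huh-7 thus held PID1 mRNA at a 7.13-fold higher level with the empty vector than with CCDC137, while PLC/PRF/5 held almost none at either CCDC137 level. In a single bulk library per group, a loss of PID1 from some cells and a lower level in every cell cannot be told apart. The difference was -2.49 in log2(FPKM + 1), the scale used for all differences here. It was rank 18 from the lowest of 12255 genes at 1 FPKM or more in either Huh-7 library. PID1 was included with this difference already known, so its rank and its place among the 10 genes describe the choice. Within Huh-7 empty vector cells PID1 lay above 85.0% of the genes at 1 FPKM or more, and within overexpressing cells above 30.6%. On knockdown neither library reached 1 FPKM, and no ratio was formed. PID1 (ENSG00000153823) spans chr2:229715242-230136003 of GRCh37 on the minus strand, and no exon of another gene overlaps its exons on that strand in the annotation used here.

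**Figure D1:**
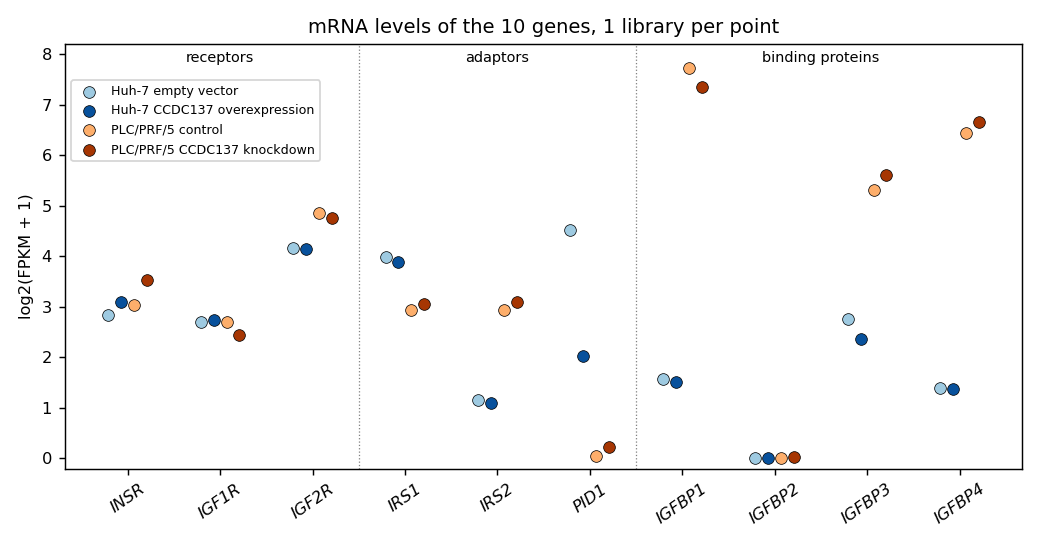
mRNA level of each of the 10 genes as log2(FPKM + 1) on the vertical axis, by gene on the horizontal axis, with 1 point per library and no error bar because each group had 1 library. PID1 is at 22.1 FPKM (empty vector) and 3.10 FPKM (overexpression) in Huh-7 and near 0 in PLC/PRF/5, whereas IGFBP1, IGFBP3 and IGFBP4 are high in both PLC/PRF/5 libraries and low in both Huh-7 libraries.

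Of the receptors, INSR was higher with either change of CCDC137, IGF1R was lower on knockdown, and IGF2R was near its control level in both lines. INSR was at 6.11 (empty vector) and 7.55 FPKM (overexpression) in Huh-7, and at 7.24 (control) and 10.6 (knockdown) in PLC/PRF/5; values of other genes are given in the same order. It was thus higher in both treated libraries, by 0.27 on overexpression and 0.49 on knockdown in log2(FPKM + 1), and 78.2% of the 12255 genes at 1 FPKM or more in either Huh-7 library and 92.0% of the 12300 in PLC/PRF/5 had a smaller absolute difference. IGF1R was at 5.53 and 5.70 FPKM in Huh-7 and at 5.48 and 4.47 in PLC/PRF/5, with differences of 0.04 and -0.25. In PLC/PRF/5 the FPKM of INSR relative to IGF1R was therefore 1.32 in control and 2.37 in knockdown cells, beside 1.11 and 1.33 in Huh-7. IGF2R, the most abundant of the 3 receptor mRNAs in every library, was at 17.0 and 16.8 FPKM in Huh-7 and at 27.8 and 26.1 in PLC/PRF/5, with differences of -0.01 and -0.09, both below the median size over all genes of 0.13 and 0.10. An exon of the pseudogene CHP1P2 overlaps IGF2R on the same strand, and CHP1P2 itself was listed between 0.316 and 0.685 FPKM.

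The substrates IRS1 and IRS2 differed more between the lines than with the CCDC137 level, as genes in general did. Over all genes the median size was 0.59 between the control libraries, beside 0.13 on overexpression and 0.10 on knockdown. IRS1, the main substrate of INSR in many tissues, was at 14.8 and 13.7 FPKM in Huh-7 and at 6.71 and 7.29 in PLC/PRF/5. IRS2, a substrate whose transcription insulin represses in liver, was at 1.23 and 1.15 FPKM in Huh-7 and at 6.70 and 7.52 in PLC/PRF/5. Both Huh-7 libraries thus held mainly IRS1, with an IRS1 to IRS2 ratio of 11.97 and 11.9, while PLC/PRF/5 held both substrates at like levels, with ratios of 1.00 and 0.969. The Huh-7 ratios divide by an IRS2 level just above 1 FPKM, so a small error in IRS2 would shift them much. The summed FPKM of the pair was 16.0 and 14.9 in Huh-7 and 13.4 and 14.8 in PLC/PRF/5, so that the sum varied less than its makeup. Differences with CCDC137 were -0.10 and 0.11 for IRS1 and -0.05 and 0.15 for IRS2 on overexpression and knockdown. IRS1 lies at chr2:227596028-227664536 and IRS2 at chr13:110405042-110438930 of GRCh37, both on the minus strand.

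Of the binding proteins, 3 were higher in PLC/PRF/5 and 1 was nearly absent throughout. IGFBP1, the insulin-repressed binding protein of hepatocytes, was at 1.97 and 1.84 FPKM in Huh-7 and at 212 and 161 in PLC/PRF/5, where it lay above 99.0% and 98.7% of the genes at 1 FPKM or more. IGFBP4, which binds IGFs until the protease PAPPA cleaves it, was at 1.62 and 1.58 FPKM in Huh-7 and at 85.8 and 99.6 in PLC/PRF/5. IGFBP3, the main IGF carrier of plasma, was at 5.77 and 4.13 FPKM in Huh-7 and at 38.8 and 48.1 in PLC/PRF/5. For each of these 3 genes both Huh-7 libraries lay below both PLC/PRF/5 libraries. Such a separation, in either direction, was common: it held for 82.5% of the 13857 genes compared in this way. IGFBP2, another binding protein secreted by the liver, was listed at 0 in 3 libraries and at 0.0243 FPKM in PLC/PRF/5 knockdown cells, although none of 13 genes that every cell uses, such as ACTB and TBP, was at 0. The 4 binding proteins together summed to 9.37 and 7.55 FPKM in Huh-7 and to 337 and 309 in PLC/PRF/5, a 35.9-fold ratio between the control libraries and a 40.9-fold ratio between the treated libraries.

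Within PLC/PRF/5, the 3 detected binding proteins did not go one way on knockdown. IGFBP1 was lower in knockdown cells (-0.39 in log2(FPKM + 1)), while IGFBP3 (0.30) and IGFBP4 (0.21) were higher. The share of IGFBP1 in the summed FPKM of the 4 binding proteins was 63.0% in control and 52.2% in knockdown cells, that of IGFBP4 25.5% and 32.3%, and that of IGFBP3 11.5% and 15.6%. In Huh-7, where IGFBP3 held 61.6% and 54.7% of the sum, IGFBP3 was lower on overexpression (-0.40), and IGFBP1 (-0.06) and IGFBP4 (-0.02) were close to their empty vector level. IGFBP1 (chr7:45927959-45933259, plus strand) and IGFBP3 (chr7:45951844-45961473, minus strand) are neighbours on GRCh37 with 18584 bases between them, and IGFBP4 lies elsewhere, at chr17:38599702-38613977 on the plus strand. The neighbours were both higher in PLC/PRF/5, and went in opposite directions on knockdown.

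**Figure D2:**
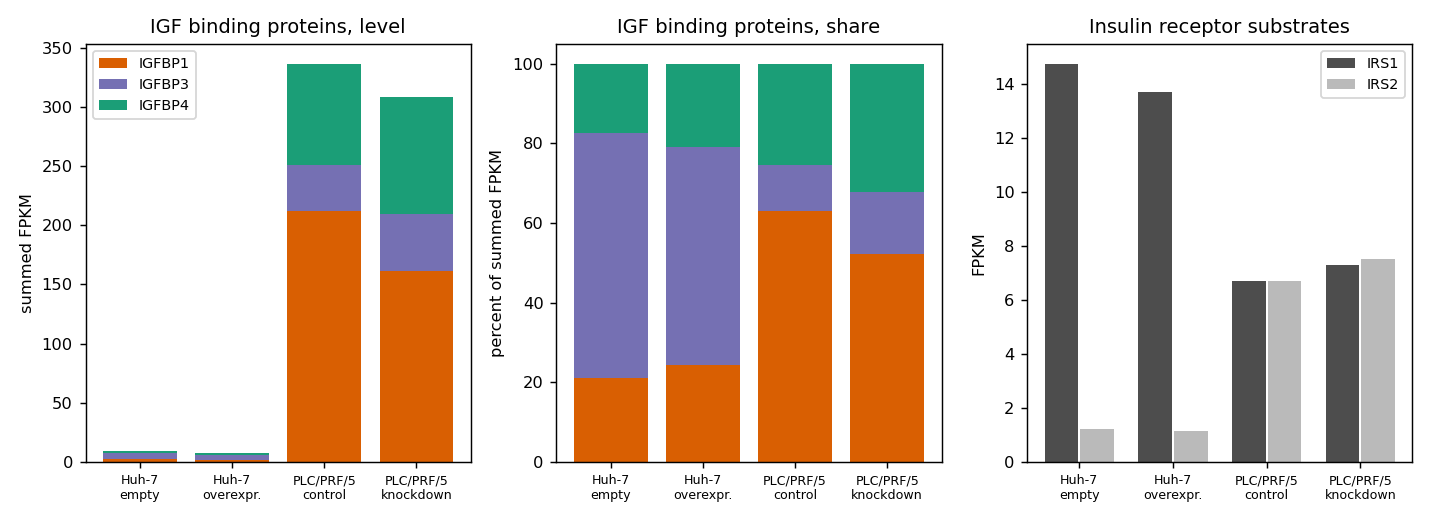
Bars give, for each of the 4 libraries on the horizontal axis, the FPKM of IGFBP1, IGFBP3 and IGFBP4 stacked to their sum (left), the percent each contributes to that sum (middle) and the FPKM of IRS1 and IRS2 (right), with no error bar because each group had 1 library. The binding proteins sum to 337 and 309 FPKM in PLC/PRF/5 against 9.37 and 7.55 in Huh-7, and IRS1 is 11.97 and 11.9 times IRS2 in Huh-7 and 1.00 and 0.969 times IRS2 in PLC/PRF/5.

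The 10 genes were then set beside all genes. On overexpression 9 of the 10 reached 1 FPKM in either library, 2 higher and 7 lower, and 1 of the 9 (PID1, lower) passed 2-fold on the log2(FPKM + 1) scale, beside 2.15% of 12255 genes. PID1 joined the set with its large difference already known, so that this count is a description of the choice. The median difference of the 9 was -0.05, against 0.01 over all 12255 genes, and the median size regardless of sign was 0.06 against 0.13. On knockdown 8 of the 10 reached 1 FPKM, 5 higher and 3 lower, and 0 of 8 passed 2-fold, beside 2.30% of 12300 genes. The median was 0.13 against -0.01 over all genes, and the median size was 0.23 against 0.10. The median size was thus larger than over all genes on knockdown and smaller on overexpression. With 8 and 9 genes, chosen with earlier results known, and 1 library per group, these medians do not set the genes apart. Among the 8 genes present in both comparisons, 5 had opposite signs on overexpression and knockdown, namely IGF1R, IRS1, IRS2, IGFBP3 and IGFBP4, or 62.5%, beside 48.8% of 10698 genes. Of these 5, IGFBP3 had a difference beyond 0.25 in both comparisons.

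**Figure D3:**
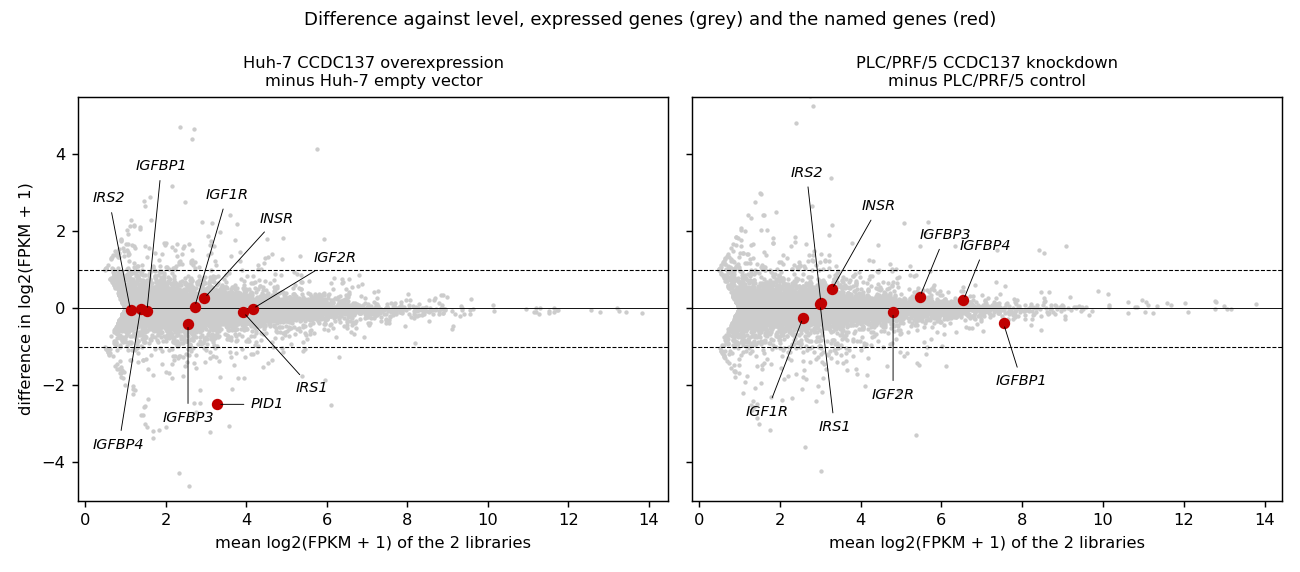
Difference in log2(FPKM + 1), treated minus control, on the vertical axis against the mean log2(FPKM + 1) of the 2 libraries on the horizontal axis, for overexpression in Huh-7 (left) and knockdown in PLC/PRF/5 (right). Grey points are all genes at 1 FPKM or more in either library, red points the named genes and dashed lines mark 2-fold: PID1, at -2.49, lies beyond them on overexpression, and no red point does on knockdown.

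The control libraries of the lines were then compared directly. The levels come from separate tables and each line from 1 library, so that line, vector and library cannot be told apart. Of 9 genes at 1 FPKM or more, 6 differed by 2-fold (66.7%), beside 28.2% of 13304 genes. The 6 include PID1, whose Huh-7 empty vector level was part of the difference known when it joined the set. The genes were chosen with earlier results of these data known, so this count also describes the choice. PID1 (4.48 in log2(FPKM + 1)) and IRS1 (1.03) were higher in Huh-7 empty vector cells, while IGFBP1 (-6.16), IGFBP4 (-5.05), IGFBP3 (-2.56) and IRS2 (-1.79) were higher in PLC/PRF/5 control cells. IGFBP1 was at rank 9 and IGFBP4 at rank 31 of all 13304 genes from the side of PLC/PRF/5, with FPKM ratios of 108 and 52.9, and PID1 was at rank 44 from the side of Huh-7. The difference of PID1, near 0 in PLC/PRF/5, depended on the pseudocount: it was 7.38 with 0.1 and 2.43 with 5 in place of 1. With a pseudocount of 5, IRS1 (0.75) and IRS2 (-0.91) no longer passed 2-fold. INSR (-0.21), IGF1R (0.01) and IGF2R (-0.68) stayed inside it. Both Huh-7 libraries lay on one side of both PLC/PRF/5 libraries for 8 of the 9 genes, the exception being INSR, but this held for 82.5% of the 13857 genes that reached 1 FPKM in at least 1 of the 4 libraries.

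**Figure D4:**
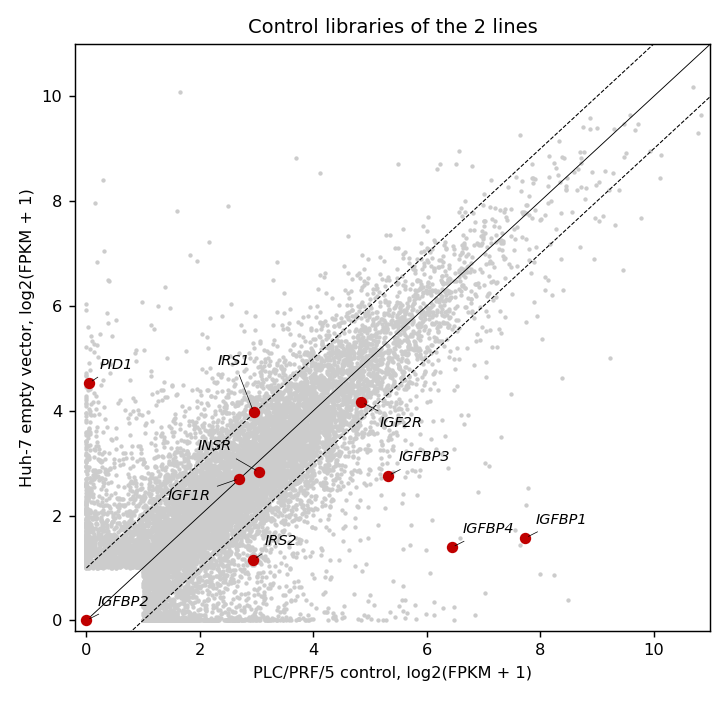
log2(FPKM + 1) in Huh-7 empty vector (vertical axis) against PLC/PRF/5 control (horizontal axis), with all genes at 1 FPKM or more in either library in grey, the 10 genes in red, the line of equal level and dashed lines at 2-fold. IGFBP1, IGFBP4, IGFBP3 and IRS2 lie below the dashed lines, PID1 and, by little, IRS1 above them, and the receptors between them.

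For the substrates and binding proteins that differed between the lines, the bases before the RefSeq start site are shown (GRCh38.p14), since these are the stretches from which the core machinery starts transcription. A RefSeq promoter entry was held for 8 of the 10 genes, and PID1 and IGFBP1 had none in the table used. Each window is the 100 bases upstream of the start site, 5′ to 3′ on the gene's strand. Capitals mark TATAAA and TATATA (forms of the TATA box), TGTTTTG (a core of the insulin response sequence that FOXO factors bind) and GGGCGG (the GC box bound by SP1), searched on both strands. The TATA forms can overlap each other, and GGGCGG can overlap itself.
IGFBP3: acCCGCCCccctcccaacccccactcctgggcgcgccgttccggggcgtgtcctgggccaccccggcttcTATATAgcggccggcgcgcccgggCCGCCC
IGFBP4: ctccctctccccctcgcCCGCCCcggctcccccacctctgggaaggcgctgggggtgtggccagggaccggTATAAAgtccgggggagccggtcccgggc
IRS1: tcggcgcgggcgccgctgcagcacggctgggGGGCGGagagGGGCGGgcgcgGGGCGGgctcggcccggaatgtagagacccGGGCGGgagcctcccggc
IRS2: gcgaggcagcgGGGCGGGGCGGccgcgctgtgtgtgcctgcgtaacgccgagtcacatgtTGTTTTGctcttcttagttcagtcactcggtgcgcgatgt

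The windows lie at chr7:45921273-45921372 (IGFBP3, minus strand), chr17:40443350-40443449 (IGFBP4, plus), chr2:226799821-226799920 (IRS1, minus) and chr13:109786584-109786683 (IRS2, minus). Both binding proteins held a TATA form near the usual position, IGFBP3 TATATA at -30 to -25 and IGFBP4 TATAAA at -29 to -24 from the start site. Of 35116 RefSeq promoter windows of the same length, 1.65% held TATATA and 4.99% TATAAA. Neither substrate held one. IRS2 held TGTTTTG at -40 to -34, found in 1.55% of windows, and IRS1 did not. GC boxes, found in 31.3% of windows, stood in all 4, with 4 in IRS1, 2 each in IRS2 and IGFBP3 and 1 in IGFBP4. A match describes these letters and is not a measured site.

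Of the ligands, IGF2 was present in Huh-7 and nearly absent from PLC/PRF/5. IGF2, the fetal growth factor that signals through IGF1R and INSR, was at 131 and 178 FPKM in Huh-7 and at 0.242 and 0.210 in PLC/PRF/5. INS and IGF1 mRNA were at or near 0 in all 4 libraries, as was IGFALS, the third subunit of the plasma complex of IGF and IGFBP3. Huh-7 thus held IGF2 mRNA far above that of all 4 binding proteins together, and PLC/PRF/5 held the reverse. The RNA-binding proteins IGF2BP2 (12.6 and 16.2 FPKM in Huh-7, 36.1 and 38.7 in PLC/PRF/5), IGF2BP1 (27.5 and 28.2, 38.4 and 37.8) and IGF2BP3 (14.6 and 15.0, 8.01 and 8.01) were present in every library. None of the 4 genes of this list at 1 FPKM or more on overexpression, nor of the 3 on knockdown, passed 2-fold. Over all genes 2.15% and 2.30% did. The list's median was 0.19 on overexpression, beside 0.01 over all genes, and its 4 values lay between 0.03 and 0.44. On knockdown its 3 values lay between -0.02 and 0.10.

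Of the remaining binding proteins and their proteases, STC2 and HTRA1 differed by 2-fold between the control libraries, both higher in PLC/PRF/5. They were 2 of the 5 genes of this list that entered that comparison, beside 28.2% of 13304 genes past 2-fold. With 5 genes the list cannot be set apart from that share. STC2, a secreted inhibitor of PAPPA proteases, was at 10.8 and 13.5 FPKM in Huh-7 and at 26.5 and 26.3 in PLC/PRF/5. HTRA1, a secreted protease that cleaves IGFBPs, was at 0.0710 and 0.0745 FPKM and at 2.73 and 3.39. PRSS23 was at 5.53 and 4.15 FPKM and at 8.84 and 9.41, and IGFBP6, a binding protein that prefers IGF2, was at 0.364 FPKM or less in every library. PAPPA, the IGFBP4 protease, was at 0.291 and 0.239 FPKM in Huh-7 and at 0.00485 and 0.00545 in PLC/PRF/5, the line with the higher IGFBP4 mRNA level. PAPPA was below 1 FPKM in every library and entered no comparison. A link between it and IGFBP4 was not tested, and protein was not measured here. Of 10 genes in the list, 4 on overexpression and 5 on knockdown reached 1 FPKM (medians -0.05 and 0.09). None of them passed 2-fold, beside 2.15% and 2.30% of all genes.

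Other adaptors and PI3K subunits stayed inside 2-fold with CCDC137. LRP1, the receptor that PID1 binds, was at 48.6 and 52.5 FPKM in Huh-7 and at 8.72 and 7.96 in PLC/PRF/5, so that LRP1 and PID1 were both higher in Huh-7, and LRP1 did not share the difference of PID1 on overexpression. PIK3R1, the p85 alpha subunit that docks PI3K on IRS proteins, was at 1.67 and 2.89 FPKM in Huh-7 (0.54), and at 1.02 and 1.14 in PLC/PRF/5. GRB2, which links receptors to RAS, was at 24.7 and 17.3 FPKM and at 40.9 and 39.98. PIK3R2, the p85 beta subunit, was at 18.5 and 20.2 FPKM and at 8.73 and 6.55, and CRK, an adaptor recruited to phosphotyrosines, at 20.2 and 19.9 and at 14.7 and 8.72. The differences of CRK (-0.69) and PIK3R2 (-0.37) on knockdown stayed inside 2-fold. Of 13 genes, 10 reached 1 FPKM in each comparison and 0 passed 2-fold (medians 0.02 and -0.06). Over all genes 2.15% and 2.30% passed, so a count of 0 is not particular to a list this short.

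Inhibitors of the receptors and adaptors included the differences nearest to 2-fold outside PID1. GRB10, which binds INSR and IGF1R and restrains them, was at 7.59 and 3.86 FPKM in Huh-7 (-0.82), and at 3.69 and 2.75 in PLC/PRF/5 (-0.32). SOCS2, an inhibitor of growth hormone signaling, was at 1.01 and 0.626 FPKM in Huh-7 (-0.30) and at 2.99 and 5.94 in PLC/PRF/5 (0.80). SOCS1, which promotes the degradation of IRS proteins, was at 1.76 and 0.888 FPKM and at 0.219 and 0.260. AHSG, the plasma protein fetuin-A that inhibits INSR, was at 125 and 167 FPKM in Huh-7 and at 2.53 and 1.79 in PLC/PRF/5. Of the 12 inhibitors, 12 on overexpression (5 higher, 7 lower, median -0.06) and 11 on knockdown (4 higher, 7 lower, median -0.11) reached 1 FPKM. In either comparison 0 passed 2-fold, beside 2.15% and 2.30% of all genes.

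Liver genes that insulin controls were also measured. On overexpression 5 of 11 reached 1 FPKM and all 5 were higher, by between 0.007 (ACACA) and 0.25 (PNPLA3), with a median of 0.14. On knockdown 8 did, 2 higher and 6 lower (median -0.09). Over all genes the medians were 0.01 and -0.01, and the share of all genes that were higher was not counted. None passed 2-fold in either, beside 2.15% and 2.30% of all genes. The median size regardless of sign was 0.14 and 0.15, beside 0.13 and 0.10 over all genes. The 5 on overexpression are all induced by insulin, while the 8 on knockdown include genes it represses, so the direction counts cover unlike sets. PNPLA3, a lipid droplet protein induced by insulin, was at 8.19 and 9.94 FPKM in Huh-7 and at 0.596 and 0.898 in PLC/PRF/5. SREBF1, the insulin-induced regulator of lipogenesis, was at 8.85 and 9.40 FPKM and at 8.80 and 7.62, while the glycogen-targeting subunits PPP1R3B (3.77 and 4.55, 2.28 and 2.20) and PPP1R3C (0.355 and 0.344, 1.01 and 1.39) were low. Of the genes that insulin represses through FOXO1, PDK4 (a kinase that inhibits pyruvate dehydrogenase) was at 0.409 and 0.276 FPKM in Huh-7 and at 25.2 and 24.9 in PLC/PRF/5. G6PC, the glucose-6-phosphatase of gluconeogenesis, was listed at 0 in both Huh-7 libraries and at 1.64 and 1.85 FPKM in PLC/PRF/5. PDK4 and G6PC were higher in PLC/PRF/5, as were IGFBP1 and IRS2, and a link between these genes was not tested. Between the control libraries 3 of the 9 genes of this list at 1 FPKM or more passed 2-fold (33.3%), beside 28.2% of 13304 genes. Line, vector and library cannot be told apart in that comparison. PDK4, G6PC, PAPPA and LRP1 were singled out after their values were seen.

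**Figure D5:**
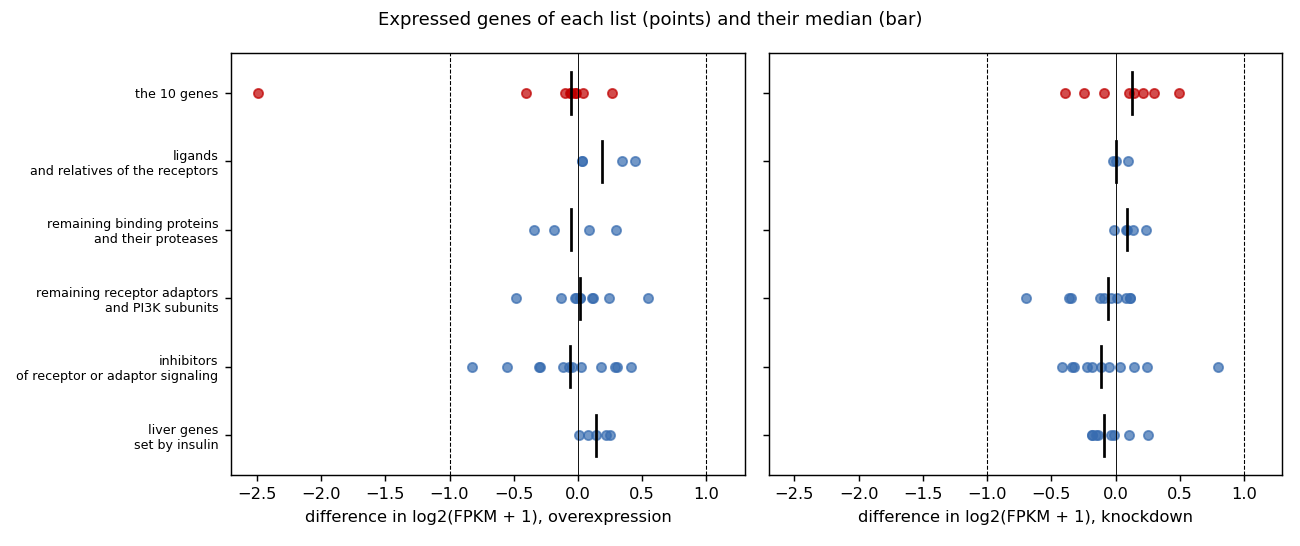
Difference in log2(FPKM + 1), treated minus control, on the horizontal axis for overexpression (left) and knockdown (right), with 1 point per gene at 1 FPKM or more in either library, 1 row per gene list, the list's median as a vertical bar and dashed lines at 2-fold. PID1, at -2.49 on overexpression, is the point beyond the dashed lines, and the list medians lie between -0.11 and 0.19.

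The genes whose profile over the 4 libraries was most like that of PID1 were sought among 13857 genes, by the root mean square distance of log2(FPKM + 1) after centring each gene on its own mean. APOA4, an apolipoprotein, was nearest (distance 0.52), at 17.0 and 7.22 FPKM in Huh-7 and at 0.0893 and 0.0701 in PLC/PRF/5. CD44, a hyaluronan receptor (distance 0.52), was at 10.7 and 4.58 FPKM and at 0.0482 and 0.105, and PI3, an elastase inhibitor (distance 0.59), at 8.59 and 4.08 and at a listed 0. These 3 shared the low PLC/PRF/5 level and the direction on overexpression with a smaller difference than PID1. For IGFBP1, the other gene with the widest range, EREG, an EGF receptor ligand (0.07), SLC2A3, a glucose transporter (0.08), and CNTN1, a neural adhesion molecule (0.15), were nearest. EREG was at 0.181 and 0.164 FPKM in Huh-7 and at 77.0 and 66.9 in PLC/PRF/5. Over 4 libraries such a likeness is set mostly by the line.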

How the data were processed

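Tools credited in the submitters' processing notes were StringTie 1.3.4d, HISAT2 2.0.4 and cutadapt. Genome build, annotation release and strand use: not given in the sources used here. FPKM per gene were deposited by the authors in 2 tables, 1 per line, with 0.0001 standing for 0, which was reset to 0. Their own comparison columns (fold, p, q, regulation) were not used. Read totals were not analysed here. The most common ratio among genes under 0.1 FPKM gives a relative depth of 0.865 (overexpression to empty vector) and 1.16 (knockdown to control), from 3.18% and 4.05% of such genes, so whole reads were not recovered and depth and counting error are unknown.

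Tables were joined by Ensembl ID (Python 3.11.15, pandas 2.3.3, numpy 2.4.6, matplotlib 3.10.9). Differences are log2((FPKM + 1)/(FPKM + 1)), with a pseudocount of 1, which understates low genes. Genes at 1 FPKM or more in either library entered a comparison, and 2-fold on this scale was the limit for counts. The functions were run on copies of these data in which some well expressed genes were changed by set folds beyond the limit. No noise was added, so this checks the code and says nothing of the error of the data. Gene positions come from a GENCODE annotation lifted to GRCh37, promoter windows from RefSeq (GRCh38.p14). Named were the 10 genes, per list the genes past 2-fold or otherwise the 4 with the largest difference, and the 3 nearest profiles. The genes and lists were chosen with earlier results of these data known.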

Additional observations from a re-analysis of the deposited data

How the results depend on the processing

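The alternatives were pseudocounts of 0.1 and 5, no filter or a 5 FPKM filter, and folds of 1.5 and 3. Scaling alternatives were rescaling each library to a common FPKM sum (as TPM), centring on the median, and upper quartile scaling. The common sum was larger than that of any library, while the pseudocount stayed at 1. Values after rescaling therefore mix a change of scale with a pseudocount that weighs less. The count of the 10 genes past the limit stayed at 1 on overexpression and 0 on knockdown under all alternatives, and lay between 4 and 7 between the lines. The median difference between the lines, -0.68, was -0.58 with a pseudocount of 5 and -0.45 without a filter. Single-gene differences moved by 0.1 or more in 4 of 60 values on overexpression, 1 of 56 on knockdown and 17 of 63 between lines. These totals include the filter settings, which cannot move a single-gene difference, so they overstate how stable the values were. IGF2R on overexpression changed sign (0.02 after rescaling), and PID1 lay between -2.79 and -1.74 on overexpression. Between the lines PID1 (4.48) was 7.38 with a pseudocount of 0.1, 6.14 after rescaling and 2.43 with a pseudocount of 5. Over all genes, 537 and 534 passed 2-fold on overexpression and knockdown with a pseudocount of 0.1, 66 and 70 with 5, 149 and 157 with a 5 FPKM filter, and 463 and 483 after rescaling, against 264 and 283. Between the lines 1345 did with a pseudocount of 5 and 2278 with the 5 FPKM filter, against 3755. Low values rest on few fragments.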

Other observations

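H19, a noncoding RNA next to IGF2 that is imprinted in the opposite way, was looked up after the IGF2 values were seen. It was at 0.575 and 0.502 FPKM in Huh-7 empty vector and overexpressing cells, where IGF2 was at 131 and 178, and at 47.1 and 52.0 in PLC/PRF/5 control and knockdown cells, where IGF2 was at 0.242 and 0.210. The readthrough gene INS-IGF2, which shares IGF2 sequence, was listed at 0 in all 4 libraries.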
